A study of Schizosaccharomyces pombe with 27 samples.

Results

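In fission yeast (Schizosaccharomyces pombe), 7535 of 41591 bins of 300 bp (18.1%) did not show Polδ and Polε on opposite strands as mirror images of each other. Each polymerase was followed by polymerase usage sequencing (Pu-Seq), which counts ribonucleotides left in genomic DNA on each strand. The strand track of a library is the count on the top strand minus that on the bottom strand, divided by their sum, so it runs from -1 to 1. S is the sum of the Polε track and the Polδ track of the same experiment, and it is 0 where the tracks are exact mirror images. The bins were selected on WT values of S alone. A bin was taken when it held at least 50 counts in each of the 4 WT libraries for Polδ and Polε and when S was at least 0.3 in size, with the same sign, in both WT experiments. These bins are called non-mirroring bins below. Of them, 3713 had S above 0, an excess on the top strand, and 3822 had S below 0, an excess on the bottom strand. Since S in WT chose the bins, its WT values are given as a description only.

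Replication is divided between polymerases. Polε extends the leading strand, while Polα and Polδ make the lagging strand from short Okazaki fragments. A fork that moves rightward therefore leaves Polε ribonucleotides on the top strand and those of Polδ and Polα on the bottom strand, and a fork that moves leftward leaves the reverse. Tracks change sign at origins, where forks leave in both directions, and across termination zones, where forks meet.

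All strains were h- and carried leu1-32, ura4-D18, an ade6 mutation (listed as unknown in the WT strain for Polε) and a disrupted rnh201, which encodes the catalytic subunit of RNase H2, the enzyme that removes ribonucleotides from DNA. Each strain had a polymerase mutation that raises ribonucleotide use, either cdc6-L591G (Polδ), cdc20-M630F (Polε) or pol1-L850F (Polα). WT strains had no extra Polδ genes, 2×Polδ strains had 1 extra cassette with cdc1, cdc27, cdc6 (the catalytic subunit) and cdm1 on chromosome I, and 4×Polδ strains had 3 such cassettes there. The cassettes carried cdc6-L591G in the strains that followed Polδ and unmutated cdc6 in the others. Each cassette also held a selection marker, ura4 in 2×Polδ strains and ura4, kanR and natR in 4×Polδ strains. WT strains had no cassette, so ura4 at this site went together with the extra Polδ genes. rnh201 was replaced by kanR in WT strains and by hygR in the others, and every polymerase was followed in a strain of its own. Cultures grew exponentially in YES medium without treatment. Each of the 9 strains had 2 experiments, and the 2 sequencing runs of experiment 1 were summed, which gave 18 libraries from 27 samples. Totals were 34475309 to 43905303 counts in experiment 1 and 16062711 to 24590546 in experiment 2. The study describes the 2 experiments as biological repeats. One set of libraries in the study was made by alkaline cleavage and another with RNase H2, and the sources used here do not say which deposited experiment is which.

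Sequences of 6 of the strongest non-mirroring bins are shown because 78.8% of the bins held more C than G on the strand of the excess. They are the 3 bins of each sign that ranked highest by the smaller S of the WT experiments among bins of unique sequence. They run 5′ to 3′ on the top strand, from RefSeq build ASM294v3. Bins chrII:74701-75000, chrII:44401-44700 and chrI:4110301-4110600 had the excess on the top strand, and capitals mark C. Bins chrI:5265001-5265300, chrII:4533901-4534200 and chrI:3300301-3300600 had the excess on the bottom strand, and capitals mark G, which pairs with C on that strand.
chrII:74701-75000: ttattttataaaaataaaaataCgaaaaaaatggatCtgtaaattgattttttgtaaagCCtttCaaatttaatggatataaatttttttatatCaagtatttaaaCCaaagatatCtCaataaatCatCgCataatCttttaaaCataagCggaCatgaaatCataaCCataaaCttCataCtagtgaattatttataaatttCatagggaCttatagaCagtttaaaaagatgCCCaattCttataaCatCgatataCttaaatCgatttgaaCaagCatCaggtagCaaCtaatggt
chrII:44401-44700: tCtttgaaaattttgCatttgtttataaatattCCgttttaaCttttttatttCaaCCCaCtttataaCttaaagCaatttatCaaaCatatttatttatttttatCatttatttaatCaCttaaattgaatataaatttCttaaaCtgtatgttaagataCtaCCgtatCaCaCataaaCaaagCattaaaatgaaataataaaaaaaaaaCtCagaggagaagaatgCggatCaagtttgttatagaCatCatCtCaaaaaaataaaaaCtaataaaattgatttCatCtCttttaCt
chrI:4110301-4110600: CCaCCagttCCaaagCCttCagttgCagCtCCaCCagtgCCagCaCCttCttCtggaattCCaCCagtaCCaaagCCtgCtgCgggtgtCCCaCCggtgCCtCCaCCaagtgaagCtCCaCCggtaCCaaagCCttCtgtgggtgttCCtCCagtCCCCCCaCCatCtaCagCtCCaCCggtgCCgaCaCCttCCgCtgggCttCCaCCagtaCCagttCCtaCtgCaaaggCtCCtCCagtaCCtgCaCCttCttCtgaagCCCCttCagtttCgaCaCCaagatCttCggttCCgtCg
chrI:5265001-5265300: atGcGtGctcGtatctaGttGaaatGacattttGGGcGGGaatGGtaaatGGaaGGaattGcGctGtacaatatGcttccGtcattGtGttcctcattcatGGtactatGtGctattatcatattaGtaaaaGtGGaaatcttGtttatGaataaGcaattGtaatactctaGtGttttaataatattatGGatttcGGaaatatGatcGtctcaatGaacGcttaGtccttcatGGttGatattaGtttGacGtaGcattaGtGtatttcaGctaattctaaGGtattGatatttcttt
chrII:4533901-4534200: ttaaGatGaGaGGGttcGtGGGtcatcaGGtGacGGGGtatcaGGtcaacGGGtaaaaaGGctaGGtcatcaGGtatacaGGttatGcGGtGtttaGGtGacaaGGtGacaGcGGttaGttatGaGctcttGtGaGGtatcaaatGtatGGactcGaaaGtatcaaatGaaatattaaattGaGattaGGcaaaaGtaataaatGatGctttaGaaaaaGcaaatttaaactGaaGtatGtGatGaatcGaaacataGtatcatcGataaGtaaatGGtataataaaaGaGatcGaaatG
chrI:3300301-3300600: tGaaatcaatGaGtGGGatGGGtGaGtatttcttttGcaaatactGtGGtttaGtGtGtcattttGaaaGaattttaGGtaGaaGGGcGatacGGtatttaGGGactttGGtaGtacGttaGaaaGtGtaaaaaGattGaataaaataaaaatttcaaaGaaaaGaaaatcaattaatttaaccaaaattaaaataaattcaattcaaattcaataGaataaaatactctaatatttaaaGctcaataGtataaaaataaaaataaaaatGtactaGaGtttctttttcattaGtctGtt

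The top-strand bin in bbc1 held 117 C and 58 G, and the one at the end of SPOM_SPBPB8B6.02C held 40 C and 24 G. The bin at chrII:74701-75000, which overlaps no annotated gene, was nearly balanced, with 39 C and 34 G, but held 125 A and 102 T. Of the bottom-strand bins, the one in abp1, which encodes a DNA-binding protein of the CENP-B family, held 62 G and 39 C. The bin near the right end of chromosome II held 80 G and 30 C, and the bin at chrI:3300301-3300600, with no annotated gene, held 51 G and 24 C. For Polδ in WT experiment 1, the bin near the right end of chromosome II had 716 top-strand and 5158 bottom-strand counts. The median bin of that library held 849 counts in total, and the number of copies of this sequence was not tested. So all 6 bins had more C than G on the strand of the excess, by amounts that differed between bins.

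In each of these bins the excess was seen in every library. In the abp1 bin, the Polδ track was -0.752 and -0.745 in WT cells, -0.723 and -0.842 in 2×Polδ cells and -0.754 and -0.827 in 4×Polδ cells. The Polε track of this bin was -0.684 and -0.888 in WT cells, -0.671 and -0.625 in 2×Polδ cells and -0.642 and -0.564 in 4×Polδ cells. The Polα track was -0.836 and -0.848 in WT cells, -0.790 and -0.749 in 2×Polδ cells and -0.811 and -0.718 in 4×Polδ cells. All 3 polymerases thus left most ribonucleotides on the bottom strand. In the bin at chrII:74701-75000, the tracks of all 3 polymerases lay on the top strand in all libraries, between 0.567 and 0.915. The mean log2 ratio of top to bottom counts over Polδ and Polε in the 2×Polδ and 4×Polδ libraries, which took no part in the selection, was -2.60 ± 0.13 (SE, adjusted p = 4.75e-06) in the abp1 bin and 2.78 ± 0.27 (SE, adjusted p = 3.59e-05) at chrII:74701-75000, by edgeR's quasi-likelihood test. The other strongest bins lay largely in repeats and at chromosome ends. In the bin of tlh1, a subtelomeric helicase gene, at the left end of chromosome I, S was 1.93 and 1.37 in WT cells, 1.91 and 1.29 in 2×Polδ cells and 1.88 and 1.18 in 4×Polδ cells.

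Bins just inside the threshold were picked for S near 0.3 in WT, so their WT values are a description only. In the WT experiments S was -0.30 and -0.301 in a bin of tdh1, which encodes a glyceraldehyde-3-phosphate dehydrogenase, -0.30 and -0.408 in a bin of tra2, and 0.326 and 0.30 in a bin on chromosome III at 1117501 to 1117800. Just outside it, with 1 value short of 0.3 before rounding, S was -0.30 and -0.429 in a bin of sec74, -0.366 and -0.30 in a bin of vts1, and -0.30 and -0.304 in a bin of tho1.

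The excess recurred in the strains with extra Polδ genes. These strains share their experiments with the WT libraries that chose the bins. Over all eligible bins, S of different backgrounds correlated at 0.957 to 0.964 within experiment 1 and at 0.871 to 0.943 within experiment 2. The recurrence is therefore not independent of the selection. Turned so that the sign in WT counts as positive, the median S of the non-mirroring bins was 0.536 and 0.531 in the WT experiments that chose them. The 2×Polδ experiments gave 0.551 and 0.495, and the 4×Polδ experiments 0.524 and 0.521. The sign was that of WT in 7532 and 7502 bins of 2×Polδ and in 7523 and 7447 bins of 4×Polδ. The remaining eligible bins, turned to the sign of WT experiment 1, kept it in 89.4% and 59.8% in 2×Polδ and in 88.8% and 61.0% in 4×Polδ (experiments 1 and 2). Among the non-mirroring bins S reached 0.3 in 91.1% and 81.0% of the bins in 2×Polδ and in 88.8% and 81.7% in 4×Polδ. The median of all eligible bins lay between -0.0018 and 0.0016 in the 6 experiments. The plot of S by strain background and experiment shows that the ranges of the 6 sets overlapped over most of their length.

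**Figure D1:**
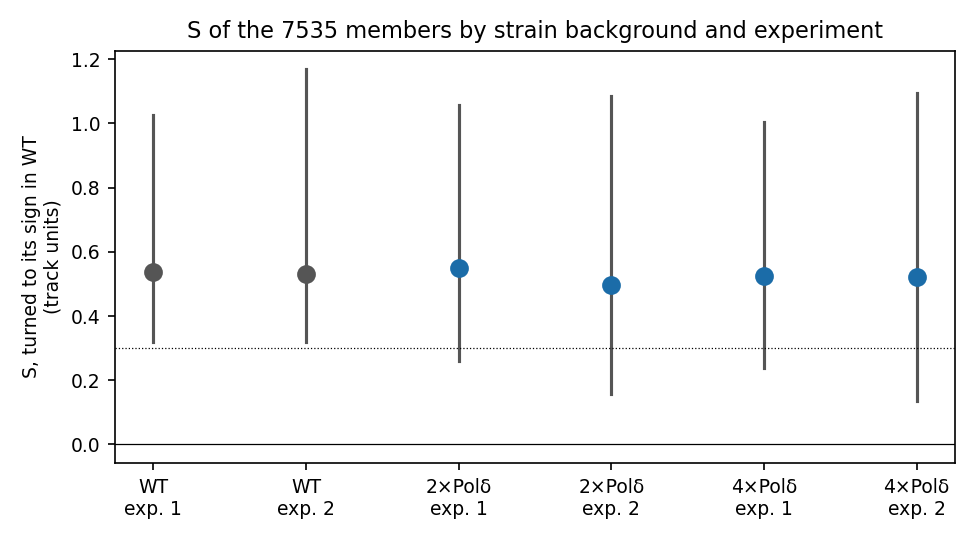
Points give the median S of the 7535 non-mirroring bins, in track units and turned to the sign in WT, and lines span the 5th to 95th percentile of bins, for WT, 2×Polδ and 4×Polδ in experiments 1 and 2. The dotted line marks 0.3, and the WT values lie above it because they chose the bins, while the medians of the other 4 sets lie between 0.495 and 0.551.

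The shared strand excess was tested in the 8 libraries of 2×Polδ and 4×Polδ for Polδ and Polε. The test asked whether the mean log2 ratio of top to bottom counts over both polymerases differed from 0. Of the 3713 bins with a top-strand excess in WT, 3682 passed with the excess on the top strand, where 28.4% of all 41883 bins tested passed on that strand. Of the 3822 bins with a bottom-strand excess, 3786 passed on the bottom strand, against a background of 28.5%. No non-mirroring bin passed with the opposite sign, and 67 did not pass (edgeR's quasi-likelihood test, adjusted p below 0.05). The median log2 ratio in the WT direction was 0.94, while the median size over all bins was 0.41. Among the remaining eligible bins 47.7% also passed, in either direction. Libraries of the same experiment deviated together (r of 0.70 to 0.89 between strains), which this model leaves out, so its p-values may be too small. The libraries tested also share their experiments with the WT libraries that chose the bins, so the test is not independent of the selection. In 2×Polδ alone 4766 non-mirroring bins passed, where 16.3% of all bins tested did, and in 4×Polδ alone 5540, where 21.8% did. With experiment as a block 7514 passed, where 76.8% of all bins did.

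Polα libraries took no part in the selection, but Polα shares the lagging strand with Polδ, whose WT tracks did. They also belong to the same experiments as the WT libraries that chose the bins. The Polα values are therefore not independent of the selection, and they lay on the same side. The Polα track, turned to the strand of the excess, had a median of 0.234 and 0.204 in WT cells, 0.195 and 0.208 in 2×Polδ cells and 0.233 and 0.196 in 4×Polδ cells. The mean of the 2 medians was 0.219 ± 0.021 in WT cells, 0.201 ± 0.0088 in 2×Polδ cells and 0.214 ± 0.026 in 4×Polδ cells (SD, n = 2), so the ranges of the 3 backgrounds overlapped. The Polα track lay on the strand of the excess in 71.9% and 70.0% of the non-mirroring bins in WT cells. The shares were 65.3% and 68.45% in 2×Polδ cells and 72.4% and 69.6% in 4×Polδ cells. In the remaining bins, turned to the sign of WT experiment 1, they were 51.3% to 54.6% in experiment 1 and 45.4% to 46.0% in experiment 2. The sum of Polα and Polε holds the Polε track, which in WT took part in the selection. For this sum, the sign was that of S in WT in 7527 and 7515 bins of the WT experiments, 7488 and 7345 of 2×Polδ, and 7520 and 7253 of 4×Polδ. In the test of the 2×Polδ and 4×Polδ libraries for Polα and Polε, 3513 of the 3713 top-strand bins passed on the top strand, where 25.9% of the 41896 bins tested did, and 3633 of the 3822 bottom-strand bins passed on the bottom strand, where 26.1% did. None passed with the opposite sign, and the median log2 ratio in the WT direction was 0.81. Both tests share the Polε libraries of 2×Polδ and 4×Polδ. In 2×Polδ alone 3805 non-mirroring bins passed, where 14.0% of all bins tested did, and in 4×Polδ alone 4250, where 18% did. With experiment as a block 7405 passed, where 70.3% of all bins did.

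An excess on a strand can arise with both tracks on it or with 1 track much larger than the other. Both the Polδ and the Polε track lay on the strand of the excess in both WT experiments in 3340 non-mirroring bins (44.3%). Only Polε lay on that strand in 1515 bins and only Polδ in 890, and the pattern differed between the WT experiments in 1790. In 2342 bins (31.1%) both tracks lay on the strand of the excess in all 12 libraries for Polδ and Polε, and in 1704 bins (22.6%) this held for all 3 polymerases in all 18 libraries. In bins of the last kind no library placed its polymerase mainly on the other strand. All these counts include the WT tracks that chose the bins, and a large S itself favours both tracks on 1 strand. They are a description only, and the remaining bins were not counted in this way.

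The excess was local. Relative to the mean of up to 5 bins on each side, with other non-mirroring bins left out, the track shifted towards the strand of the excess in all 3 polymerases. Leaving those bins out of the flanks favours such a shift, and in WT the Polδ and Polε tracks also chose the bins. In the remaining bins, turned to the sign of WT experiment 1, the mean of the median shifts was 0.049 to 0.067 over polymerases and backgrounds. The median shift of Polδ was 0.211 ± 0.017 in WT cells, 0.250 ± 0.0021 in 2×Polδ cells and 0.233 ± 0.021 in 4×Polδ cells (SD, n = 2 experiments). For Polε it was 0.293 ± 0.038 in WT cells, 0.240 ± 0.028 in 2×Polδ cells and 0.239 ± 0.014 in 4×Polδ cells, and for Polα 0.192 ± 0.013 in WT cells, 0.193 ± 0.0012 in 2×Polδ cells and 0.195 ± 0.033 in 4×Polδ cells. The 4×Polδ and 2×Polδ values overlapped for Polε and Polα. For Polδ the 4×Polδ experiments gave 0.218 and 0.248, and the 2×Polδ experiments 0.252 and 0.249. In 6897 non-mirroring bins (91.5%) the mean shifts of Polδ, Polε and Polα in the 2×Polδ and 4×Polδ libraries all had the sign of the excess, as they did in 51.1% of the remaining bins, turned to the sign of WT experiment 1. Across the non-mirroring bins the shift of Polδ correlated with that of Polα at r = 0.94 and with that of Polε at r = 0.75 (n = 7531 bins, which share libraries and base composition, so no p is given). Across the remaining eligible bins these values were 0.86 and 0.20 (n = 34055). The selection on WT favours bins where Polδ and Polε shift together, so the difference between the 2 sets of bins was not tested. In the plot of mean tracks by distance, the mean Polδ track of 2×Polδ and 4×Polδ was 0.271 in the selected bin and 0.067 in the bin before it, and the mean Polα track was 0.199 and 0.024 at these places.

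**Figure D2:**
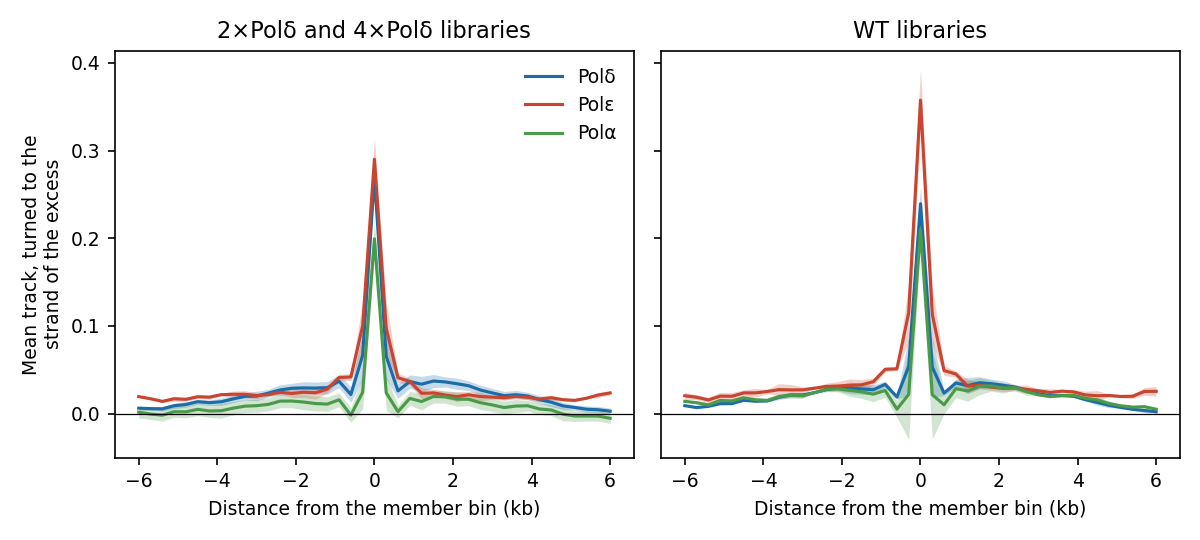
Lines give the mean track of Polδ, Polε and Polα, turned to the strand of the excess, against the distance from the non-mirroring bin in kb, and bands give 1 SD over libraries, in 2×Polδ and 4×Polδ (n = 4 per polymerase, left) and in WT (n = 2, right). All 3 polymerases peak in the selected bin and stand below 0.05 from 0.6 kb on in 2×Polδ and 4×Polδ.

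Median counts at the non-mirroring bins were close to those of the remaining bins, with ratios of 0.962 to 1.03 over the 18 libraries. In 2×Polδ and 4×Polδ, the median count on the strand opposite to the excess was 0.631 to 0.748 of the median total of the other bins divided by 2, and the count on the strand of the excess was 1.07 to 1.36 times that value. In WT the strand opposite to the excess stood at 0.576 to 0.726 and the strand of the excess at 1.08 to 1.4.

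Non-mirroring bins were scattered through the genome. They made up 18.1% of eligible bins on chromosome I (3335 bins), 18.8% on chromosome II (2822) and 17.0% on chromosome III (1378). They formed 5937 runs of adjoining bins of one sign, of which 4758 were single bins, and 28 runs held 5 bins or more. Of 1895 adjoining pairs, 1598 had one sign and 297 opposite signs. Within 100 kb of a chromosome end the share was 27.1% (537 of 1979 bins).

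To place the bins relative to direction changes, a direction track was taken as the Polε track minus the Polδ track, divided by 2, averaged over the 2×Polδ and 4×Polδ libraries. Changes of its sign between the means of 5 bins on each side, of at least 0.2, gave 496 changes from leftward to rightward forks, the origin type, and 231 changes from rightward to leftward forks, the termination type. The median distance from a non-mirroring bin to the nearest change was 5.55 kb, and it was also 5.55 kb for the remaining bins. To the nearest origin-type change it was 7.35 kb for non-mirroring bins and 7.05 kb for the rest, and to the nearest termination-type change 18.8 kb for non-mirroring bins and 19.4 kb for the rest. Other settings gave medians further apart. To termination-type changes of the WT Polα track the median distance was 6.15 kb for non-mirroring bins and 8.55 kb for the rest, to those of at least 0.1 it was 5.85 kb for non-mirroring bins and 7.65 kb for the rest, and to any change of at least 0.4 it was 9.75 kb for non-mirroring bins and 8.55 kb for the rest.

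The share of bins that were non-mirroring varied with these distances. Within 1.5 kb of a termination-type change it was 23.6% (543 of 2305 bins), and from 6 to 12 kb it was 15.6% (1019 of 6535). Within 1.5 kb of an origin-type change it was 20.4% (966 of 4725), from 1.5 to 3 kb 15.7% (759 of 4836), and beyond 24 kb 21.5% (432 of 2008). When the WT Polα track placed the changes, the shares within 1.5 kb were 21.1% for the origin type and 25.8% for the termination type. With changes of at least 0.4, of which 18 were of the termination type, they were 18.8% and 37.2% in the same order. Direction was measured from tracks that enter S, and no test was made of these shares.

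Where the direction of replication was strong, the share of bins past the threshold was smaller, which is given without a test because direction and S come from the same tracks. The share that was non-mirroring was 25.1% where the mean direction track of the 5 bins on each side was below 0.1 in size, 21.0% from 0.2 to 0.4, 15.0% from 0.4 to 0.6 and 6.38% at 0.6 or more. The size of the log2 ratio common to Polδ and Polε changed little over the same classes. Its median over all eligible bins was 0.42 in the lowest class and 0.40 in the highest, while the median size of S fell to 0.123 in the highest class, against 0.281 in the lowest.

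**Figure D3:**
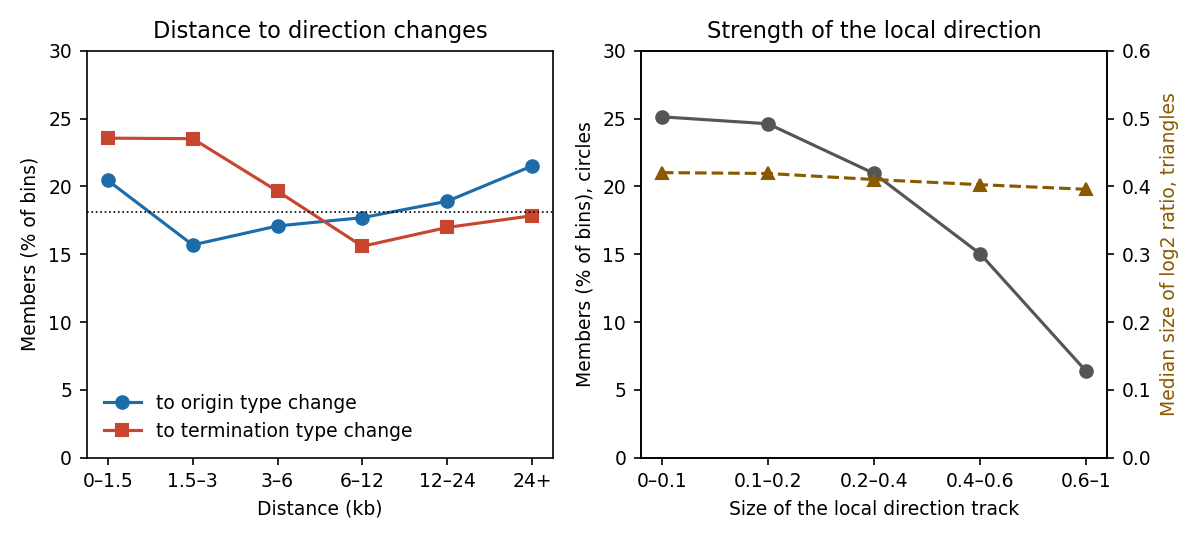
Left, the share of eligible bins that were non-mirroring (%) by distance in kb from the nearest direction change of the origin type (circles) and the termination type (squares), with the overall 18.1% dotted. Right, the same share (circles, left axis) and the median size of the log2 top to bottom ratio common to Polδ and Polε in 2×Polδ and 4×Polδ (triangles, right axis) by the size of the direction track of the neighbouring bins, where the share drops to 6.38% and the log2 ratio stays near 0.4.

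The excess lay on either side of the fork. Of 4381 non-mirroring bins with a direction track of at least 0.2 in size around them, 2301 (52.5%) had it on the leading strand and 2080 on the lagging strand. The remaining bins, turned to the sign of WT experiment 1, had it on the leading strand in 54.1% to 56.9% over the classes of direction from 0.2 up. In the leading-strand bins, the Polε track turned to the strand of the excess was 0.664 ± 0.012, against 0.434 ± 0.013 in the flanking bins, and the Polδ track was -0.089 ± 0.023, against -0.340 ± 0.0098 in the flanks (mean of medians ± SD, n = 4 libraries of 2×Polδ and 4×Polδ). In the lagging-strand bins, Polδ stood at 0.659 ± 0.020 in the bins and 0.413 ± 0.020 in the flanks, and Polε at -0.182 ± 0.039 in the bins and -0.430 ± 0.0075 in the flanks. Polα stood at -0.162 ± 0.056 in the leading-strand bins and -0.356 ± 0.041 in their flanks, and at 0.60 ± 0.049 in the lagging-strand bins and 0.390 ± 0.036 in their flanks. Every polymerase shifted towards the strand of the excess on both sides of the fork, the one that normally dominates that strand and the one that does not. The flanks again left out other non-mirroring bins, which favours such a shift. Where the direction track was 0.6 or more, 165 of 472 non-mirroring bins (35.0%) had the excess on the leading strand, beside 54.1% of the remaining bins. No test was made of these shares.

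Base composition, which the selection did not use, differed with the strand of the excess. On that strand the median base content of the non-mirroring bins was 33.3% A, 19.7% C, 16.0% G and 31.0% T, and 5941 of 7535 bins (78.8%) held more C than G there, beside 53.7% of the remaining bins, turned to the sign of WT experiment 1. In the bins with a top-strand excess, the skew (G minus C over their sum, top strand) had a median of -0.10 and quartiles of -0.181 and -0.022. In the bins with a bottom-strand excess the median was 0.10, with quartiles of 0.021 and 0.181, and in the remaining bins it was 0, with quartiles of -0.085 and 0.086. More A than T on the strand of the excess was found in 61.0% of the non-mirroring bins and 51.2% of the remaining bins. Total GC content was alike, with medians of 35.7% in both sets of non-mirroring bins and 36.3% in the rest.

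Across all eligible bins ordered by GC skew, the share with a top-strand excess was 23.9% in the decile richest in C and 1.97% in the decile richest in G. The share with a bottom-strand excess was 1.85% and 24.6% in the same deciles. The median S of the 2×Polδ and 4×Polδ libraries, over all bins and without regard to the selection, ran from 0.251 in the decile richest in C to -0.247 in the decile richest in G, with the same order in each of the 4 experiments. The correlation of S with GC skew was -0.33 and -0.41 in the 2×Polδ experiments and -0.35 and -0.40 in the 4×Polδ experiments (n = 41591 bins). The correlation with AT skew (A minus T over their sum) depended on the experiment. It was 0.025 in experiment 1 and 0.204 in experiment 2 of 2×Polδ, and 0.020 and 0.302 in those of 4×Polδ. By polymerase, the shift from the flanks correlated with GC skew at -0.236 to -0.157 for Polδ, -0.200 to -0.166 for Polε and -0.069 to -0.025 for Polα in the 3 libraries of each in experiment 1, and at -0.392 to -0.333 for Polδ, -0.352 to -0.289 for Polε and -0.243 to -0.094 for Polα in experiment 2.

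**Figure D4:**
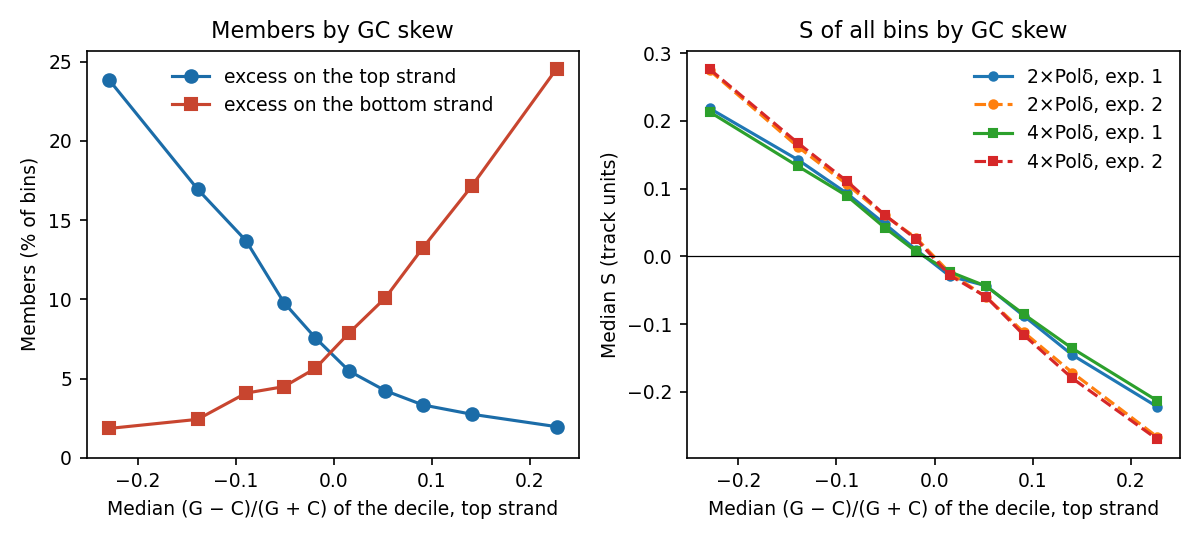
Left, the share of eligible bins that were non-mirroring (%) with a top-strand or bottom-strand excess, by decile of the GC skew of the top strand. Right, the median S of all bins in each decile, in track units, in the 2×Polδ and 4×Polδ experiments, with averages of 0.251 at the lowest and -0.247 at the highest skew.

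Among non-mirroring bins, the side relative to transcription differed between classes of genes. Shares on the template or coding strand, here and below, were not counted in the remaining bins. Whether they are particular to non-mirroring bins was therefore not tested. Of 4303 non-mirroring bins that lay wholly within protein-coding genes of one strand, 2804 (65.2%) had the excess on the template strand and 1499 on the coding strand. Among those with more C than G on the template strand, 2289 of 2505 had the excess on the template strand. Among those with more G than C there, 456 of 1696 did. At noncoding RNA genes 1704 of 4167 non-mirroring bins (40.9%) had the excess on the template strand, counting every bin that overlapped such genes of one strand. Counted the same way, the share at protein-coding genes was 61.7% (3406 of 5523). These classes overlap, since protein-coding genes held 81.1% of the non-mirroring bins and noncoding RNA genes 61.3%. A bin with genes of both classes on opposite strands is thus counted on opposite sides in these classes. Of 48 non-mirroring bins at ribosomal protein genes, 34 had the excess on the template strand, and non-mirroring bins made up 10.6% of the 452 bins there, beside 18.1% of all bins. Histone genes held 6 non-mirroring bins in 38, all with the excess on the template strand, and tRNA genes held 40 in 193, 20 on each strand.

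Repeated sequences held many non-mirroring bins. Of bins in which at least 50% of the 50-base words occur more than once in the genome, 32.6% (554 of 1699) were non-mirroring. Reads from such bins cannot be assigned to 1 copy, so copies do not count as separate observations. Tf2 retrotransposons, the active LTR elements of this yeast, had 93 non-mirroring bins in 185 (50.3%), spread over all 13 annotated elements with 6 to 9 in each, and 90 of the 93 had the excess on the coding strand. The wtf genes, a family of meiotic drivers, had 37 in 121 (30.6%), 33 of them with the excess on the template strand. In the test of 2×Polδ and 4×Polδ libraries, 6923 of 6981 non-mirroring bins outside repeated sequence passed in the direction of WT, where 56.6% of all such bins passed in either direction. For Polα and Polε 6618 of the 6981 did, where 51.6% of all such bins passed.

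The 5 longest runs lay in repeats and beside the mating-type locus. A run of 12 bins (III, 5701 to 9300) and one of 11 bins (III, 16801 to 20100) had the excess on the top strand over ribosomal RNA genes of the bottom strand, and a run of 11 bins at the other end of chromosome III (2444101 to 2447400) had it on the bottom strand over a ribosomal RNA gene of the top strand. Their counts were 25.1, 25.3 and 23.5 times the median bin, and rDNA is known to have many more copies than the reference holds. In the first of these runs mean S was 0.959 and 0.866 in WT cells, 1.006 and 0.804 in 2×Polδ cells and 1.04 and 0.833 in 4×Polδ cells. Over all ribosomal RNA genes, 48 of 51 non-mirroring bins had the excess on the template strand. A run of 10 bins (II, 693601 to 696600) lay in SPOM_SPBPJ4664.02, in which 93.2% of the words were repeated, with 25.7% C and 11.9% G on the top strand. Its S was 0.776 and 0.50 in WT cells, 0.952 and 0.590 in 2×Polδ cells and 0.895 and 0.776 in 4×Polδ cells.

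The run of 10 bins between mat1 and mat3 (II, 2126101 to 2129100) was of another kind. mat1 is the expressed mating-type cassette and mat3 a silent one, and replication through mat1 is known to be polar. The run was 32.5% A, 17.0% C, 16.7% G and 33.7% T, with no repeated words. Mean S was -1.008 and -0.90 in WT and -1.002 and -1.05 in 2×Polδ, while in 4×Polδ it was -0.285 and -0.329. The 4×Polδ values did not overlap those of 2×Polδ or WT.

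Strains differed in this run. The Polε track was -0.753 and -0.601 in WT cells, -0.773 and -0.762 in 2×Polδ cells and -0.776 and -0.758 in 4×Polδ cells, so it was on the bottom strand in every strain. The Polδ track was -0.255 and -0.30 in WT and -0.228 and -0.289 in 2×Polδ, but 0.491 and 0.429 in 4×Polδ. The Polα track was -0.269 and -0.252 in WT, but 0.468 and 0.426 in 2×Polδ, and again -0.268 and -0.304 in 4×Polδ. The Polδ strain of 4×Polδ and the Polα strain of 2×Polδ had lagging-strand tracks opposite to Polε, and the other 4 strains for Polδ or Polα had tracks on the same strand as Polε. Both experiments of each strain were alike. Each polymerase and background had a strain of its own, so cassettes, polymerase mutation and other strain differences cannot be told apart here. No cause was tested. Flanks were taken beside the span of the non-mirroring bins called between 4×Polδ and 2×Polδ with experiment as a block. In 30 kb on each side the mean tracks of Polε and of the other polymerases had opposite signs in every strain. They were 0.177 to 0.264 for Polε, -0.306 to -0.208 for Polδ and -0.311 to -0.195 for Polα. These means join both sides and do not show mirroring in each bin. In the 25.5 kb to the left of this span, 26 of 85 bins were non-mirroring, 20 of them with a bottom-strand excess. To the right 16 of 83 were, 6 of them with a bottom-strand excess. A bin at 2108401 to 2108700, which was called but was not non-mirroring, lies in the left flank. Bin counts in the run were 0.712 to 1.04 of the median bin in the 18 libraries.

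**Figure D5:**
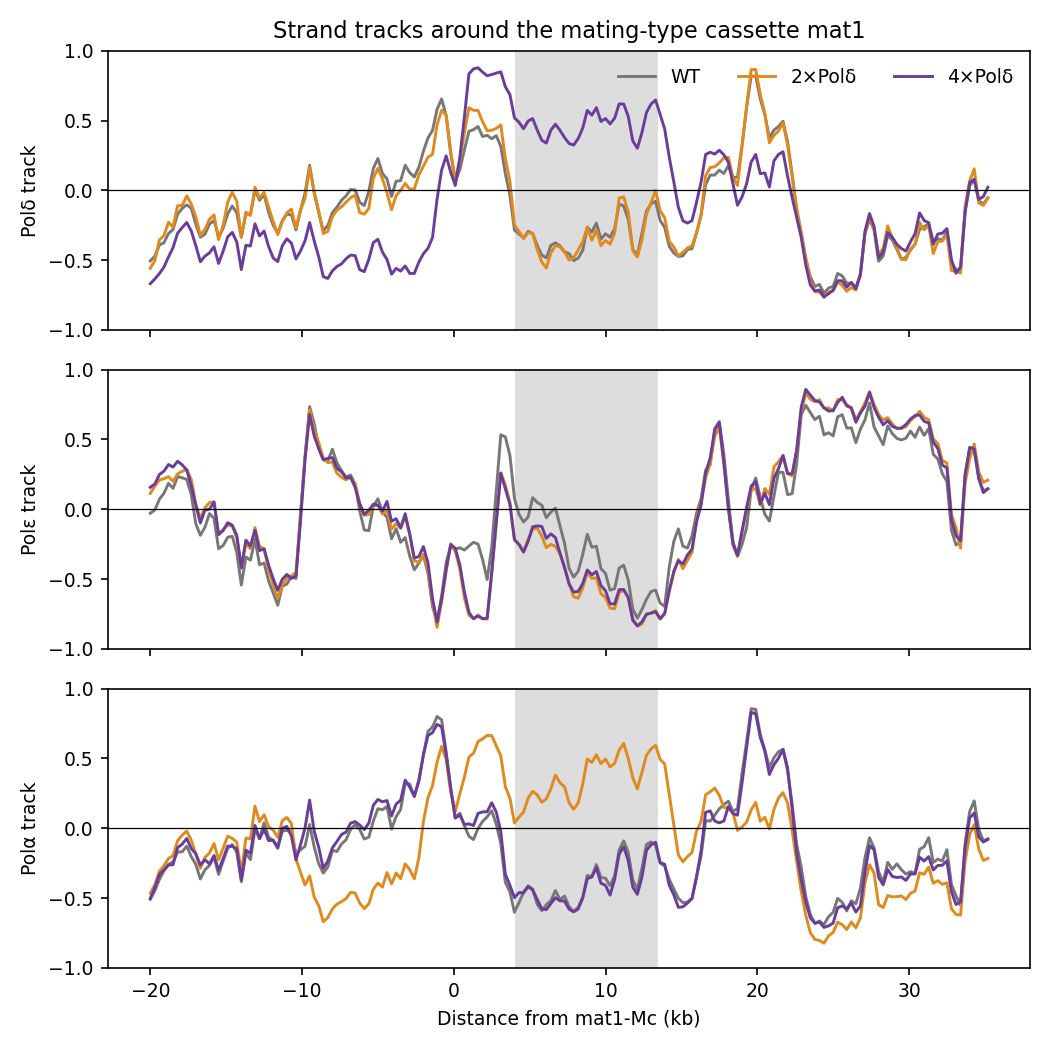
Tracks of Polδ, Polε and Polα (rows, mean of 2 experiments, smoothed over 3 bins) against the distance from the mat1-Mc gene in kb in WT, 2×Polδ and 4×Polδ strains. The shaded span, 4.1 to 13.4 kb from mat1-Mc, holds the bottom-strand bins that were higher in 4×Polδ than in 2×Polδ in the test with experiment as a block, and there the Polδ strain of 4×Polδ and the Polα strain of 2×Polδ stand apart from the other strains of their polymerase.

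Differences between 4×Polδ and 2×Polδ were tested at all non-mirroring bins with the same libraries. Without experiment in the model, 0 of 7535 passed, against a background of 0.0% of 41883 bins, and 45 of them had an unadjusted p below 0.05, as had 121 of all bins (edgeR's quasi-likelihood test). DESeq2 gave 17, with 0.0573% of all bins called. Experiments paired the libraries, and with experiment as a block 31 non-mirroring bins passed, with 0.136% of all bins called (57 bins). All 31 lay on chromosome II between 2109601 and 2135100, around mat1 and mat3, where 39 of 81 eligible bins were non-mirroring. Of the 57 called bins, 55 lay on chromosome II, and other bins of this stretch were among them. The bin at 2120101 to 2120400, which was not non-mirroring, had a log2 difference of 1.49 ± 0.16 (SE, adjusted p = 0.0007 with the block, edgeR). The difference was thus not particular to non-mirroring bins. In 27 of them the difference (4×Polδ minus 2×Polδ) ran against the sign of S in WT, and in the other 4 it ran with it. In the bin at 2124001 to 2124300, the 4×Polδ experiments had S of -0.132 and -0.138 and the 2×Polδ experiments -1.21 and -1.06, a log2 difference of 1.64 ± 0.15 (SE, adjusted p = 0.000374 with the block, edgeR). In a bin of rga7 on the other side of mat1 (2112001 to 2112300), S was -1.11 in both 4×Polδ experiments and -0.610 and -0.370 in 2×Polδ, a log2 difference of -1.09 ± 0.15 (SE, adjusted p = 0.00488 with the block, edgeR). Over all non-mirroring bins the median S differed by -0.027 in experiment 1 and 0.026 in experiment 2 (4×Polδ minus 2×Polδ), which is opposite in sign.

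Loci that the strain construction touched have few bins each, and their counts stand beside 18.1% non-mirroring among all eligible bins. No test was made of these counts. cdc6 (17 bins), cdc27 (6), cdm1 (3) and ade6 (7) held none, cdc1 held 1 in 6, and the deleted ura4 had no eligible bin. The bin at the start of cdc1 (I, 4014901 to 4015200), a Polδ subunit gene present in each cassette, had S of 0.381 and 1.10 in WT cells, 0.805 and 1.11 in 2×Polδ cells and 0.825 and 1.04 in 4×Polδ cells. Its Polδ track was 0.845 and 0.834 in WT cells, 0.459 and 0.651 in 2×Polδ cells and 0.283 and 0.425 in 4×Polδ cells, and its Polε track was -0.465 and 0.265 in WT cells, 0.345 and 0.464 in 2×Polδ cells and 0.542 and 0.612 in 4×Polδ cells. Reads from the added copies and the native gene fall in 1 bin. cdc20, which encodes the catalytic subunit of Polε, held 4 non-mirroring bins in 25, pol1 1 in 19, leu1 2 in 5 and rnh201 1 in 4. The rnh201 bin (I, 2254501 to 2254800) lies in the disrupted gene and had 0 counts on the top strand and 357 on the bottom strand for Polδ in WT experiment 1, with S of -1.92 and -1.19 in the WT experiments. Of the 3 integration sites, 1, the site shared by 2×Polδ and 4×Polδ, had non-mirroring bins within 3 kb. It had 3 in 20, all with a top-strand excess, and the other sites had none in 21 bins each.

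S was more alike between backgrounds than between experiments. Over all eligible bins, S of different backgrounds correlated at 0.957 to 0.964 within experiment 1 and at 0.871 to 0.943 within experiment 2. Between experiments the correlation was 0.409 in WT cells, 0.469 in 2×Polδ cells and 0.508 in 4×Polδ cells (n = 41591 bins, described without a test). S of at least 0.3 in size was found in 17075 bins in WT experiment 1 and 18155 in WT experiment 2. The non-mirroring bins are those in which both experiments shared the sign.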

How the data were processed

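Ribonucleotide positions were counted per strand in 300 bp bins. The authors mapped reads with Bowtie2 to ASM294v2, per the labels, and deposited raw counts for each sequencing run. Neither the Bowtie2 version nor the treatment of repeated reads is given in the sources used here. Sequences and genes came from RefSeq's ASM294v3. Chromosome lengths fit the bins, and the relation of S to GC skew was strongest at no shift in all 25 windows tested.

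Counts of the 2 runs of experiment 1 were summed (chi-square per degree of freedom between runs 1.10 to 1.11). Precision is limited by the spread between the 2 experiments, since totals were 16062711 to 43905303 counts per library. Computation used Python 3.11.15, numpy 2.4.6 and pandas 2.3.3. Strand ratios were tested on counts with edgeR 4.0.16 in R 4.3.3 (quasi-likelihood, Benjamini-Hochberg over all bins with at least 10 counts per library), checked on simulated data. In the simulation libraries varied independently, so it does not cover the deviations that libraries of an experiment share. DESeq2 1.42.0, experiment as a block, other minimums, TMM per strand, single experiments or backgrounds, and each library left out were alternatives. Centromeres were not analysed here. Excluding repeated bins was added after seeing the data. Deviations of experiments from strain means correlated at 0.70 to 0.89 in all 6 pairs of strains, and the labels number the experiments alike, so experiments pair the libraries.

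The selection rule, gene lists and named bins were chosen with earlier results of these data known. Named bins are the 8 strongest of each sign, the 5 longest runs, bins at the loci of the strain construction and mating type, 3 bins on either side of the threshold, and bins called between 4×Polδ and 2×Polδ.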

Additional observations from a re-analysis of the deposited data

How the results depend on the processing

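The counts of non-mirroring bins with a shared excess of Polδ and Polε (7468) or of Polα and Polε (7146) stayed within 1.5 times of these values under all alternatives but the fits of 1 background. Those gave 4766 for Polδ and Polε in 2×Polδ, and for Polα and Polε 3805 in 2×Polδ and 4250 in 4×Polδ, with fewer libraries in the fit. With experiment as a block they were 7514 and 7405, where 76.8% and 70.3% of all bins passed, with 3 bins of opposite sign for Polα and Polε, and the block changed no other count by over 1.5 times than that between 4×Polδ and 2×Polδ. Experiment 2 alone gave 3 bins of opposite sign for Polδ and Polε and 27 for Polα and Polε, where DESeq2 gave 2 and the first run alone 1. With each library left out in turn they were 7352 to 7462 and 6808 to 7098, with the lone library of an arm assumed to vary like the others. No non-mirroring bin passed between 4×Polδ and 2×Polδ with any library left out, while the block gave 31 and DESeq2 17. Single experiments left no residual degrees of freedom for that comparison, so those fits were not run.

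With S of at least 0.2 or 0.4 there were 12155 and 4489 non-mirroring bins, and 4328 when tracks were first smoothed over 3 bins, of which 2508 were among the 7535. The rule applied to 2×Polδ gave 7546 bins and to 4×Polδ 7886, of which 5623 and 5575 were shared with WT. The median distance to the nearest direction change, 5.55 kb, followed the number of changes found. It was 3.45 kb with the WT Polα track, 6.45 kb with WT Polε and Polδ, 7.05 and 4.05 kb with means over 3 and 10 bins, 3.45 and 9.75 kb with changes of at least 0.1 and 0.4, and 5.25 kb with non-mirroring bins left out. All 287 values of the strongest bins under the alternatives kept their sign and their side of the threshold.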

Other observations

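In 1432 bins S was at least 0.3 in size in both WT experiments but with opposite signs, so these bins are not among the non-mirroring ones. The opposition recurred in the other backgrounds. Experiments 1 and 2 had the same opposite signs as in WT in 1371 of these bins (95.7%) in 2×Polδ and in 1279 (89.3%) in 4×Polδ. Bins on the top strand in experiment 1 and the bottom strand in experiment 2 (679) had medians of 32.3% A, 15.7% C, 17.0% G and 34.3% T, and those with the reverse (753) had 34.7% A, 16.7% C, 16.0% G and 32.3% T.

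Among 2799 protein-coding genes with at least 5 whole eligible bins, 913 held no non-mirroring bin and 163 held them in at least 50% of their bins. The following genes were chosen after their values were seen. In ade1, an enzyme gene of purine synthesis (II, 3140582 to 3143304), 7 of 8 bins were non-mirroring, all with the excess on the template strand, and the coding strand held 18.2% C and 23.8% G. In nup45, a nuclear pore gene (I, 751647 to 753405), all 5 bins were non-mirroring, all on the coding strand, which held 21.9% C and 17.6% G. In mcm4, a subunit gene of the replicative helicase (III, 900388 to 903425), 6 of 9 bins were, 4 on the template strand.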
